A study of Mus musculus with 12 samples.

Results

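The cathepsins described here are the 10 genes Ctsa, Ctsb, Ctsc, Ctsd, Ctsf, Ctsh, Ctsk, Ctsl, Ctss and Ctsz, chosen by their symbols from a table of 54532 genes, and each symbol matched 1 gene. All 10 passed the filter on low counts that left 15014 genes to be tested. Of the 10, 8 are papain-type cysteine proteases. Ctsd is an aspartic protease, and Ctsa, although grouped with the cysteine and aspartic cathepsins, encodes a serine carboxypeptidase. The libraries came from macrophages of gliomas (tumour-associated macrophages, TAMs) in 6 mice of the genotype Ntv-a_Ink4a/Arf_KO. Ntv-a mice are known for carrying the receptor of an avian retrovirus under the nestin promoter, which allows genes to be delivered to glial progenitors, and Ink4a/Arf is a tumour suppressor locus. The agent that started the tumours and the ages of the animals were not given in the sources used here. Every mouse received rhodamine-labelled perfluoro-crown-ether nanoparticles (PFCE-NP) into the blood, so there was no untreated group. After 24 hours, CD45+ CD11b+ Ly6C- tumour cells were sorted into a rhodamine-positive group, labelled as having taken up particles, and a rhodamine-negative group, with more than 2000 cells per sort. The question was how the 2 groups of 6 libraries, 1 of each kind from every mouse, differed. By their labels, mice 5 and 6 were female and the other 4 male.

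Cathepsins are the main proteases of the lysosome, the acidic compartment in which macrophages break down what they engulf. They are made as inactive precursors, tagged with mannose 6-phosphate in the Golgi, carried to endosomes by receptors for that tag, and activated there by removal of their propeptide. In macrophages and dendritic cells some of them also cut the invariant chain of MHC class II and trim antigens for presentation, and inhibitors of the cystatin and serpin families restrain those that leak into the cytosol or are secreted. Several lysosomal genes carry the palindrome CACGTG near their start, a core of the element bound by the transcription factors TFEB and TFE3.

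Of the 10 genes, 8 had promoter sequences in a RefSeq table (GRCm38.p6), 9 sequences in all, since Ctsa had 2 start sites. Ctsb and Ctsh were not among them. In the 250 bases before the start site, CACGTG occurred 2 times for Ctsd and 1 time each for Ctsl, Ctsf and the second start of Ctsa. These sites are shown because the palindrome is the element named above, and because Ctsd had the largest fold change of the set, and Ctsa and Ctsl also rose, while Ctsf did not pass the test. The capitals mark CACGTG, which reads the same on both strands.
Ctsd, chr7:142388055-142388077, minus strand: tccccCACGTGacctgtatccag
Ctsd, chr7:142387908-142387937, minus strand: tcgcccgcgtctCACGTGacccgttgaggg
Ctsa, chr2:164833749-164833772, plus strand: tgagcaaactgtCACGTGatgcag
Ctsl, chr13:64370739-64370768, minus strand: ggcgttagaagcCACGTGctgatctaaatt
Ctsf, chr19:4855074-4855103, plus strand: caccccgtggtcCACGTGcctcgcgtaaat
The palindrome began 245 and 98 bases before the RefSeq start of Ctsd, 12 bases before the second start of Ctsa, 236 before that of Ctsl and 79 before that of Ctsf. In the GENCODE annotation, transcripts of Ctsd, Ctsa, Ctsl and Ctsf begin further upstream than these RefSeq starts. The second Ctsd site and the Ctsa site lie in an annotated 5′ untranslated region and the Ctsl site lies partly in one, while the Ctsf site lies before the annotated gene. The windows of Ctsl and of the second Ctsa start lie wholly inside the annotated gene, so they are not upstream sequence by that annotation. In all, 4 of the 9 windows held CACGTG, against 6.02% of 32851 promoter windows of the same length. The longer TCACGTGAC, searched on both strands and overlapping CACGTG, occurred 1 time each in the windows of Ctsd and of the second Ctsa start, and in 0.621% of all windows. The windows of Ctsc, Ctsk, Ctsz, Ctss and the first Ctsa start did not hold CACGTG. Those of Ctsz, which rose, and Ctss, which did not pass the test, are shown whole as examples without the palindrome.
Ctsz, chr2:174439040-174439289, minus strand: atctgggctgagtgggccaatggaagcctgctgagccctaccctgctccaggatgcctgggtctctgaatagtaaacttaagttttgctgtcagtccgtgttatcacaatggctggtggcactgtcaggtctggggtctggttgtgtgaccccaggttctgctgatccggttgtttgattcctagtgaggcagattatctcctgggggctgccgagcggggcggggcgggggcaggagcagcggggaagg
Ctss, chr3:95526536-95526785, plus strand: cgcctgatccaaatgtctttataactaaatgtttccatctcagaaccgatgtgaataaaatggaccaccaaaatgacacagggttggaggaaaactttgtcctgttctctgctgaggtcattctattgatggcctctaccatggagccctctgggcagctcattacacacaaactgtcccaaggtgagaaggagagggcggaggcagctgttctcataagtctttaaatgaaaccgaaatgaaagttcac
These matches describe letters in a window, and a missing match says nothing about a factor.

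In TAMs that carried nanoparticles, the transcripts of the abundant lysosomal endopeptidases Ctsb and Ctsd rose 2.14-fold and 2.22-fold. Ctsz, Ctsl, Ctsa and Ctsc rose by smaller amounts. Ctss, an abundant cathepsin that cuts the class II invariant chain, did not pass the test, nor did Ctsh, Ctsf and Ctsk. Thus 6 of 10 cathepsins rose and none fell, beside 13% of all 15014 genes that rose and 13.2% that fell (26.2% in either direction) in edgeR's quasi-likelihood test with the mouse as a block. Without the mouse in the model 4 cathepsins rose and none fell, beside 8.46% of genes higher and 9.31% lower. The median log2 fold change of the 10 genes was 0.44, beside -0.020 over all genes tested. The genes were chosen with earlier results of these data known, so this count is a description and not an independent test of the family. Levels are given as CPM, the count of a gene scaled to the total of its library, after TMM scaling (trimmed mean of M values). Fold changes are rhodamine-positive over rhodamine-negative, with the standard error (SE) of the log2 value. As the libraries are bulk samples, more RNA per cell and more cells of a type that expresses a gene cannot be told apart.

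**Figure D1:**
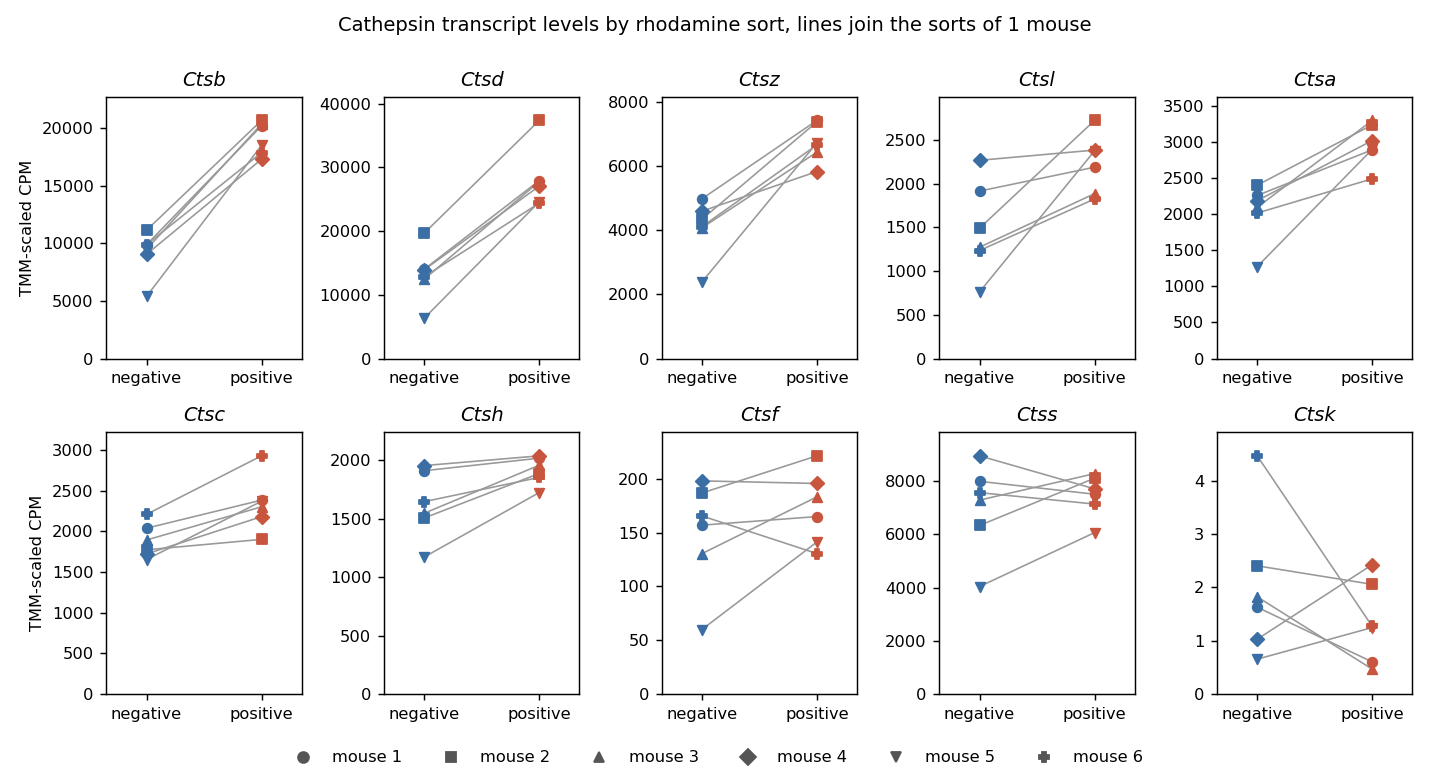
TMM-scaled CPM (linear axis from 0) of each cathepsin in the 6 rhodamine-negative and 6 rhodamine-positive libraries, with a line joining the sorts of each mouse and a marker shape per mouse. The groups do not overlap for Ctsb, Ctsd, Ctsz and Ctsa, and the lines of Ctss, Ctsf and Ctsk go in both directions.

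Libraries held 13073189 to 17379314 counts, and the first principal component held 34.7% of the variance. The counts of markers below stand beside 13% of all genes tested that rose and 13.2% that fell. Of 6 macrophage markers 3 rose and none fell. Their summed level went from 3633 to 6938 CPM in rhodamine-negative libraries to 7255 to 8464 CPM in rhodamine-positive ones, higher in 6 of 6 mice. Csf1r, the receptor that macrophages need to survive, had at least 31918 counts in every library. Of 5 microglia markers 2 rose and none fell, with sums of 3641 to 11073 and 7996 to 13095 CPM. All 7 dendritic cell markers fell, with sums of 393.4 to 1457 and 144.9 to 264.1 CPM. Monocyte markers had sums of 226.4 to 571 and 31.6 to 78.1 CPM, and 3 of 4 fell. Of the 4 border-associated macrophage markers tested 2 rose, with sums of 34.5 to 124.5 and 58.96 to 165.2 CPM, higher in 6 of 6 mice. Sums were lower in 6 of 6 mice for basophil markers (0.836 to 59.2 against 0 to 2.70 CPM), B and plasma cell markers (8.70 to 42.1 against 0.485 to 5.89 CPM), NK and T cell markers, and glioma and oligodendrocyte markers (59.1 to 92.3 against 31.1 to 55.97 CPM, with 3 of 5 lower in the test). Summed neutrophil markers stayed at or below 4.37 CPM and Ly6g, which defines that cell type, had at most 1 count in a library. Ly6c2, a gene of the antigen the gate left out, had 0 to 154 counts and did not pass (log2 -1.25, edgeR adjusted p = 0.0649), and no listed marker was at 0 in all libraries. Klrd1 was the only NK and T cell marker with enough counts to be tested, and it held most of that sum. The sum of each of these lists but that of neutrophils moved between the sorts in the same direction in 6 of 6 mice. The part of these cell types in the cathepsin result was not tested.

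Ctsb (ENSMUSG00000021939; chromosome 14, positions 63122462 to 63145923, plus strand, mm10) encodes a cysteine protease that acts as an endopeptidase and a dipeptidyl carboxypeptidase. Rhodamine-negative libraries held 5391 to 11140 CPM of Ctsb, with a median of 9683, and rhodamine-positive libraries 17299 to 20667, with a median of 19354. Every rhodamine-positive library lay above every rhodamine-negative one. Ctsb rose 2.14-fold, a log2 fold change of 1.10 (SE 0.12, n = 6 pairs; adjusted p = 0.000112 in edgeR). Within mice the log2 difference was 0.86 to 1.78, and that of mouse 5 was the largest. The libraries of mouse 5 were 5391 and 18508 CPM, and the first of these was the lowest rhodamine-negative value. Without mouse 5 the log2 fold change was 0.97.

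Ctsd (ENSMUSG00000007891; chromosome 7, positions 142375911 to 142388038, minus strand), the main aspartic protease of the lysosome, had the highest counts of the family. Rhodamine-negative libraries held 6325 to 19674 CPM, with a median of 13377, and rhodamine-positive libraries 24385 to 37370 CPM, with a median of 27419. Mouse 2 was the highest in both sorts, at 19674 and 37370 CPM, and mouse 5 the lowest among the rhodamine-negative libraries. The groups did not overlap. Ctsd rose 2.22-fold (log2 fold change 1.15, SE 0.14; edgeR adjusted p = 0.000163), with differences of 0.93 to 1.96 within mice, and by 1.00 without mouse 5. Ctsb and Ctsd were the 2 cathepsins at least 2-fold higher, beside 0.626% of all genes tested. The gene Gm49369 shares 34.4% of the exon bases of Ctsd on the same strand in the annotation and had at most 1 count in any library.

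Ctsz (ENSMUSG00000016256; chromosome 2, positions 174427493 to 174439039, minus strand) encodes cathepsin X, a carboxypeptidase that removes single residues. It had 2381 to 4970 CPM in rhodamine-negative libraries (median 4217) and 5821 to 7411 CPM in rhodamine-positive ones (median 6682). The groups did not overlap. Its fold change was 1.69 (log2 0.75, SE 0.13; edgeR adjusted p = 0.00173), with the smallest difference in mouse 4, at 0.34, and the largest in mouse 5, at 1.50. Ctsa (ENSMUSG00000017760; chromosome 2, positions 164832873 to 164841032, plus strand) encodes the serine carboxypeptidase that protects the lysosomal enzymes neuraminidase 1 and beta-galactosidase. Its range was 1275 to 2405 CPM (median 2144) against 2494 to 3304 CPM (median 2964), again without overlap. Ctsa rose 1.48-fold (log2 0.57, SE 0.12; edgeR adjusted p = 0.00461), and its differences within mice ran from 0.30 to 1.19. Thus 4 cathepsins had groups that did not overlap with the rhodamine-positive libraries higher, beside 4.14% of all genes tested (4.67% did not overlap with the rhodamine-positive libraries lower).

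Ctsl (ENSMUSG00000021477; chromosome 13, positions 64359337 to 64370890, minus strand), an endopeptidase that cuts the invariant chain in thymic epithelium and digests proteins in macrophage lysosomes, rose less evenly. Rhodamine-negative libraries had 761.3 to 2266 CPM (median 1381) and rhodamine-positive libraries 1823 to 2721 CPM (median 2280). The groups overlapped, since the rhodamine-negative libraries of mice 1 and 4, at 1914 and 2266 CPM, lay above the lowest rhodamine-positive library. Ctsl was higher in 6 of 6 mice, by 1.64 on the log2 scale in mouse 5 but by 0.072 in mouse 4. The fitted change was 1.57-fold (log2 0.65, SE 0.17; edgeR adjusted p = 0.0162). It did not pass when the mouse was left out of the model (adjusted p = 0.0672), in male mice alone (adjusted p = 0.0522) or without mouse 2 (adjusted p = 0.0502), and its log2 value in male mice was 0.42.

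Ctsc (ENSMUSG00000030560; chromosome 7, positions 88278085 to 88310888, plus strand), the dipeptidyl peptidase that activates the serine proteases of leukocyte granules, showed the smallest rise that passed. Its libraries held 1654 to 2211 CPM (median 1835) without rhodamine and 1902 to 2931 CPM (median 2338) with it. The groups overlapped, with the highest rhodamine-negative value in mouse 6. The change was 1.24-fold (log2 0.31, SE 0.09; edgeR adjusted p = 0.0194), in the same direction in 6 of 6 mice. It did not pass in 6 of 16 other settings, among them library size as the scaling (log2 0.15, adjusted p = 0.174), no mouse term (adjusted p = 0.0776), male mice alone (log2 0.23, adjusted p = 0.0873), and the fits without mouse 3 or mouse 6 (adjusted p = 0.0613 and 0.0663). Of 8 granule proteases that Ctsc is known to activate or that belong to the same families, 2 had enough counts to be tested. Gzmb, a granzyme of cytotoxic lymphocytes, had 10 to 408 counts in rhodamine-negative libraries and 0 to 27 in rhodamine-positive ones, and fell in the fit over all 6 mice. It passed the filter on low counts through its rhodamine-negative libraries, and without mouse 5 or in male mice alone 1 gene of the list was tested and none fell. Summed NK and T cell markers moved in the same direction, from 38.8 to 83.5 CPM in rhodamine-negative libraries to 2.22 to 9.94 CPM in rhodamine-positive ones. Nearly all of that sum was Klrd1, with means of 49.5 and 6.05 CPM. Ncr1, Cd3e and Cd3g had at most 11 counts in any library and were not tested, so the sum does not describe the list as a set. The part of these cells in the Gzmb values was not tested. Prtn3, of neutrophils and monocytes, had a log2 fold change of -0.68 and did not pass.

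Ctss (ENSMUSG00000038642; chromosome 3, positions 95526786 to 95556403, plus strand) is the cathepsin best known for the last cuts of the invariant chain in antigen-presenting cells, and it keeps its activity at neutral pH. Its level was 4036 to 8951 CPM in rhodamine-negative libraries (median 7427) and 6065 to 8281 CPM in rhodamine-positive ones (median 7609). The groups overlapped almost entirely, and Ctss was higher in 3 mice and lower in 3. The log2 fold change was 0.12 (SE 0.11; edgeR adjusted p = 0.457), and scaled to library size alone it was -0.037. Mouse 5 had the largest difference, at 0.59, and mouse 4 the lowest, at -0.22. A value this close to 0 does not show that the level was equal in both sorts.

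Ctsh (ENSMUSG00000032359; chromosome 9, positions 90054152 to 90076089, plus strand), an aminopeptidase, lay close to the threshold. Its levels were 1172 to 1955 CPM without rhodamine (median 1597) and 1724 to 2039 CPM with it (median 1923). The rhodamine-positive value was above that of the same mouse in 6 of 6 mice, although the groups overlapped. Its fold change was 1.19 (log2 0.26, SE 0.09; edgeR adjusted p = 0.0576), and it passed with DESeq2 (adjusted p = 0.024), with limma-voom (adjusted p = 0.0405) and without mouse 4 (adjusted p = 0.0482). With Ctsh, 7 cathepsins were higher in all 6 mice, beside 14.2% of all genes tested (14.0% were lower in all 6).

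Ctsf (ENSMUSG00000083282; chromosome 19, positions 4855130 to 4860918, plus strand), a cysteine protease with an unusually long propeptide, was far less abundant. Rhodamine-negative libraries had 59.9 to 198.2 CPM (median 161.3) and rhodamine-positive libraries 130.6 to 221.5 CPM (median 174.1), with wide overlap. It was higher in 4 of 6 mice, and the log2 fold change of 0.27 (SE 0.16) did not pass (edgeR adjusted p = 0.234). Mouse 5 moved this value most, since its difference was 1.24 and the fitted value without it was 0.097. Ctsk (ENSMUSG00000028111; chromosome 3, positions 95499256 to 95509362, plus strand), the collagen-degrading cathepsin of osteoclasts, had 6 to 75 counts per library. Its levels of 0.653 to 4.47 and 0.466 to 2.43 CPM overlapped, and it was lower in 4 mice and higher in 2. The log2 fold change of -0.53 (SE 0.48) did not pass (edgeR adjusted p = 0.448). Ctsk ends 17423 bases before Ctss begins on the same strand, yet Ctss had 61806 to 139264 counts per library. Of the osteoclast genes looked at beside Ctsk, 6 were tested. Of these 1 rose and 3 fell, beside 13% and 13.2% of all genes tested. Acp5 (log2 0.19, higher in 5 of 6 mice) and Nfatc1 (log2 -0.19) did not pass. Dcstamp and Ocstamp, needed for cell fusion, fell by 3.46 and 2.57 on the log2 scale. Dendritic cell markers fell in the same sorts, and their part in these values was not tested. The gelatinase Mmp9 fell by 3.95, and Atp6v0d2, a proton pump subunit, rose by 1.33. Mmp9 had 6 to 85 counts in rhodamine-negative libraries and 0 to 10 in rhodamine-positive ones. It passed the filter on low counts mainly through its rhodamine-negative libraries. Its call was lost when mouse 3 or mouse 6 was left out (edgeR adjusted p = 0.0548 and 0.0538). Atp6v0d2 did not pass without the mouse in the model (adjusted p = 0.131), nor when mouse 1, 3 or 5 was left out (adjusted p = 0.13, 0.163 and 0.0751).

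**Figure D2:**
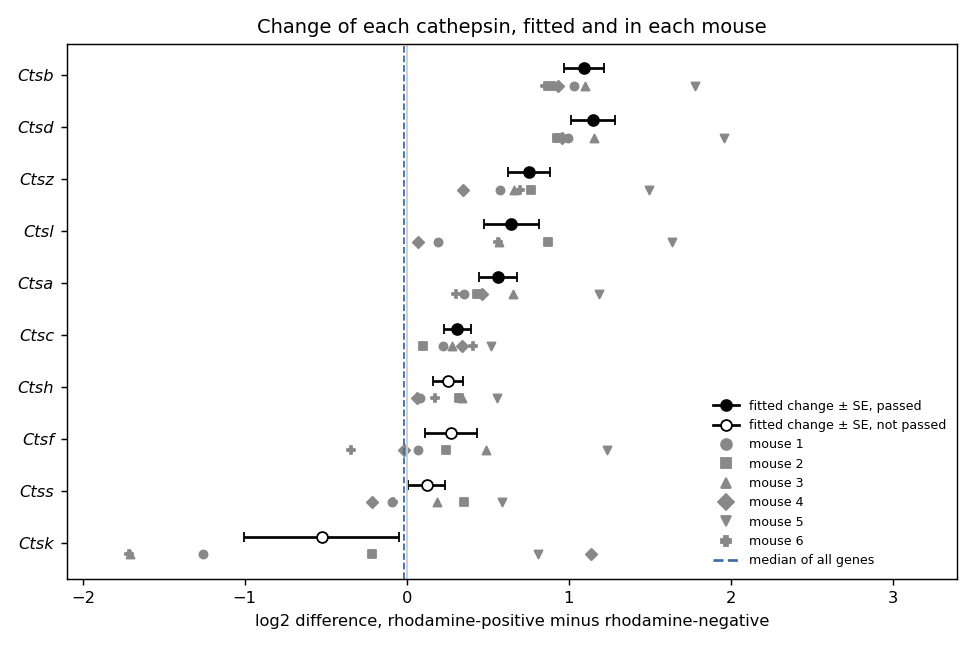
Log2 difference between rhodamine-positive and rhodamine-negative sorts: circles with bars are the fitted change ± SE in edgeR, filled where the adjusted p was below 0.05, and grey markers are the differences within each of the 6 mice. Mouse 5 (downward triangles) has the largest difference for every cathepsin but Ctsk, and the dashed line is the median of all genes tested, at -0.020.

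Mouse 5, a female, gave the largest difference for 9 of the 10 genes, all except Ctsk. Its rhodamine-negative library had the lowest macrophage and microglia marker sums of that sort, at 3633 and 3641 CPM, and the highest dendritic cell sum, at 1457 CPM. Their part in the size of its differences was not tested. How often mouse 5 gave the largest difference over all genes was not counted, so this is not a trait particular to cathepsins. Without mouse 5, the number of cathepsins that rose was again 6, beside 1590 of 15069 genes higher and 1572 lower. The log2 fold changes of Ctsl, Ctsz and Ctsa were then 0.46, 0.62 and 0.45. The fitted difference was larger in the 2 female mice than in the 4 male mice for every gene but Ctsk, with mean log2 differences of 1.10 against 0.43 for Ctsl and 1.10 against 0.59 for Ctsz. The share of all genes with a larger difference in females was not counted either. The females did not go together: mouse 6 had the lowest difference of all 6 mice for Ctsb (0.86), Ctsa (0.30), Ctsf (-0.34) and Ctsk (-1.71). No cathepsin passed the test of the sex difference itself in edgeR over all genes (lowest adjusted p = 0.641, for Ctsl, n = 6 pairs). Its unadjusted p was 0.0509 for Ctsl and 0.0542 for Ctsz, and none of the 10 was under 0.05. No gene of the 15014 passed that test (0% called).

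The spread between mice was narrower in the rhodamine-positive group for 9 of the 10 genes, with Ctsc the exception. The coefficient of variation of Ctsb was 21.5% in rhodamine-negative and 7.50% in rhodamine-positive libraries, that of Ctsh 17.8% and 6.14%, and that of Ctss 24.2% and 10.7%. For Ctsc the values were 11.2% and 14.4%. The rhodamine-negative library of mouse 5 was the lowest for Ctsb, Ctsh and Ctss, at 5391, 1172 and 4036 CPM. For Ctsb the next library was at 9044 CPM, so much of that spread rests on 1 library. The share of all genes tested with a narrower spread was not counted, so the count is not a trait particular to cathepsins. The difference in spread was not tested.

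Together the 10 genes held 2.63% to 5.07% of all counts of a rhodamine-negative library (median 4.46%) and 6.29% to 7.70% of a rhodamine-positive one (median 6.54%), without overlap. Within these counts the makeup also differed. Ctsb and Ctsd together took 54.5% ± 4.48 of the cathepsin counts without rhodamine and 66.4% ± 1.65 with it (SD, n = 6), while Ctss took 17.4% ± 2.34 and 10.5% ± 0.895. The share of Ctss was lower in the rhodamine-positive sort of all 6 mice. Ratios of counts within a library do not depend on the scaling between libraries. The median ratio of Ctsb to Ctss was 1.30 without rhodamine and 2.53 with it, and that of Ctsd to Ctss 1.70 and 3.61. Ctsz, Ctsl and Ctsa were also higher relative to Ctss in 6 of 6 mice, while Ctsh, Ctsc and Ctsf were so in 4 of 6 and Ctsk in 2 of 6. The ratios are a description and were not tested.

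**Figure D3:**
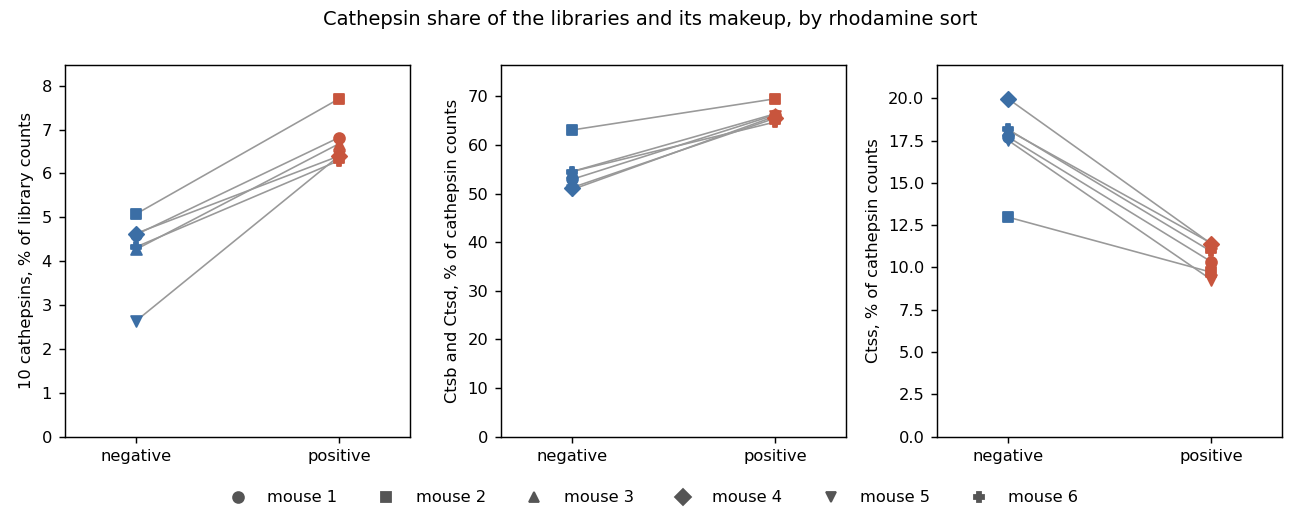
Share of all library counts held by the 10 cathepsins (left), and shares of the cathepsin counts held by Ctsb with Ctsd (middle) and by Ctss (right), in percent for each library, with lines joining the sorts of a mouse. The 6 rhodamine-positive libraries lie above the rhodamine-negative ones in the first 2 panels and below them in the third.

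Between genes, levels were compared as CPM per kilobase of the principal transcript. In rhodamine-negative libraries Ctsd was first at 6207 ± 2006 (SD, n = 6), followed by Ctss at 5187 ± 1253 and Ctsz at 2826 ± 621. Next came Ctsb at 1926 ± 414, Ctsh at 1004 ± 179, Ctsl at 756 ± 271, Ctsc at 755 ± 84.5 and Ctsa at 560 ± 109. Ctsf and Ctsk were last, at 75.6 ± 25.2 and 1.32 ± 0.898. From Ctsd down to Ctsc each gene overlapped in range with the next over the 6 mice, which does not compare genes within a library. Within rhodamine-negative libraries the ratio of Ctsz to Ctss counts was 0.512 to 0.684. The Ctsz transcript is also the longer, at 1441 against 1355 bases, so Ctsz lay below Ctss in each of these libraries. The order of the other neighbours within libraries is not given here. In rhodamine-positive libraries Ctsd stood at 13251 ± 2237 per kilobase and its lowest library, at 11464, exceeded the highest value of Ctss, 6112. Ctss at 5512 ± 591, Ctsz at 4671 ± 416 and Ctsb at 4038 ± 303 then followed, each overlapping the next, and the lowest value of Ctsb, 3647, lay above the highest of Ctsh, 1261. The lengths were taken from the annotation, and the transcripts in use in these cells were not measured. Per kilobase of all annotated exons instead, the rhodamine-negative means were 229.5 for Ctsl, 360.8 for Ctsh and 324.2 for Ctsc, all below Ctsa at 433, so the order of these 4 genes turned with the length used. Ctsd, Ctss, Ctsz and Ctsb stayed the first 4, in that order, at 5616, 5175, 2826 and 1510.

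The genes whose profile over the 12 libraries was closest to Ctsb, by the root mean square (RMS) difference of centred log2 CPM, were Uap1l1 (0.117), the lysosomal dipeptidyl peptidase gene Dpp7 (0.144), the sialic acid-binding lectin gene Cd22 (0.162), the ferritin light chain gene Ftl1 (0.163) and the lysosomal membrane protein gene Glmp (0.165). The median over 8624 genes was 0.622. Among the other cathepsins, Ctsd ranked 7th at 0.177 and Ctsz 15th at 0.206, while Ctss ranked 2347th at 0.524. For Ctsd the closest gene was Ctsb, followed by Syngr1 (0.212), Mr1 (0.215), which encodes a presenter of vitamin metabolites, Dpp7 (0.23) and the serine synthesis gene Psat1 (0.234). The profiles hold the difference between the sorts, so a rise of these nearest genes follows from the way they were picked.

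A list of processing and partner genes held Lgmn with partners of Ctsa, other lysosomal genes and the remaining cathepsins, so most of it does not process cathepsins. Of its 9 tested genes, 6 rose and 1 fell, with a median log2 fold change of 0.51. Over all genes tested 13% rose and 13.2% fell. Lgmn, the asparaginyl endopeptidase that cuts several cathepsins into their mature chains, went from 2768 ± 493 to 4523 ± 251 CPM (SD, n = 6) and rose by 0.73. Psap, the precursor of the saposins, rose by 0.71, and the tripeptidyl peptidase Tpp1 by 0.81. Both enzymes protected by the Ctsa protein rose as well, with Glb1 at 0.57 and Neu1 at 0.51. Gm2a, the ganglioside activator, was the 1 gene that fell, by 0.60. Of the remaining cathepsin genes, Ctso rose by 0.30 (edgeR adjusted p = 0.0446). Ctso did not pass without the mouse in the model (adjusted p = 0.135) and when mouse 2, 3, 5 or 6 was left out (adjusted p = 0.0663 to 0.123). Ctse and Ctsw did not pass, at 0.066 and -0.39, and Ctsg had at most 7 counts. Scaled to library size alone, 4 genes of the list rose, with Neu1 and Ctso no longer passing. In that setting 852 of all 15014 genes rose and 3142 fell.

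Of 11 genes that sort enzymes to the lysosome, 7 rose and none fell, with a median of 0.49, beside 13% and 13.2% of all genes tested. The adaptor gene Gga2 rose by 0.75, Lrp1 and Scarb2, receptors that can also carry lysosomal enzymes, by 0.57 and 0.53, and Nagpa, the enzyme that uncovers the mannose 6-phosphate tag, by 0.47. The small mannose 6-phosphate receptor gene M6pr rose by 0.35. The large receptor gene Igf2r, at 31 to 129 counts per library, did not pass (log2 0.50), nor did Gnptab, which encodes the catalytic part of the enzyme that adds the tag (log2 0.035). With library size as the scaling, 5 of the 11 rose, and M6pr and Sort1 did not pass. In that setting 852 of all 15014 genes rose and 3142 fell. Sort1, which encodes sortilin, rose by 0.49 and lost its call without the mouse in the model (adjusted p = 0.185), in male mice alone (adjusted p = 0.0703) and when mouse 1, 2 or 5 was left out (adjusted p = 0.058 to 0.0728).

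Genes in a list of cystatin, stefin, Ctla2 and serpin inhibitors moved in both directions. Of 7 tested, 4 rose and 1 fell, beside 13% and 13.2% of all genes tested, with a median of 0.49. The gene that fell was a serpin, and none of the tested cystatin, stefin or Ctla2 genes fell. Whether the serpins act on the cathepsins described here was not tested. Cstb, the cytosolic stefin B, rose from 253 ± 64.7 to 409 ± 47.1 CPM (SD, n = 6) and Serpinb6a by 0.78 on the log2 scale. Ctla2a, which resembles a cathepsin propeptide, rose by 0.82, but it was higher in only 4 of 6 mice and did not pass without the mouse in the model (adjusted p = 0.27) and when mouse 1, 2 or 4 was left out (adjusted p = 0.0743 to 0.0822). The leukocyte serpin Serpinb1a fell by 1.41. Cst7, which encodes cystatin F, rose by 0.49 (edgeR adjusted p = 0.0439) and did not pass without the mouse term (adjusted p = 0.307) and when mouse 2, 3 or 5 was left out (adjusted p = 0.061 to 0.115). With library size alone, 2 inhibitors rose and 1 fell, beside 852 of all 15014 genes that rose and 3142 that fell. Cst3, the secreted cystatin C and the most abundant inhibitor of the list, had 5404 ± 1753 and 5261 ± 953 CPM (SD, n = 6) and did not pass (log2 0.0039, and -0.16 with library size alone).

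The MHC class II pathway, whose invariant chain Ctss cuts, went the other way. Of 11 genes tested, 10 fell and none rose, beside 13.2% and 13% of all genes tested. The list gave the same counts with library size alone, where 3142 of all 15014 genes fell and 852 rose. It also did so without the mouse term, where 9.31% of genes fell and 8.46% rose. The median log2 fold change of the list was -1.98. Ciita, which switches on class II transcription, fell by 2.80 on the log2 scale. The peptide-loading genes H2-DMb2 and H2-Oa had log2 fold changes of -2.32 and -1.98, and the class II chain gene H2-Eb1 fell by 2.14. Cd74, the invariant chain itself, went from 10154 ± 4546 to 2552 ± 943 CPM (SD, n = 6). Ifi30, the lysosomal thiol reductase that opens disulfides of antigens, was the exception and did not pass (log2 0.080). Dendritic cell markers fell in the same sorts, as given above.

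**Figure D4:**
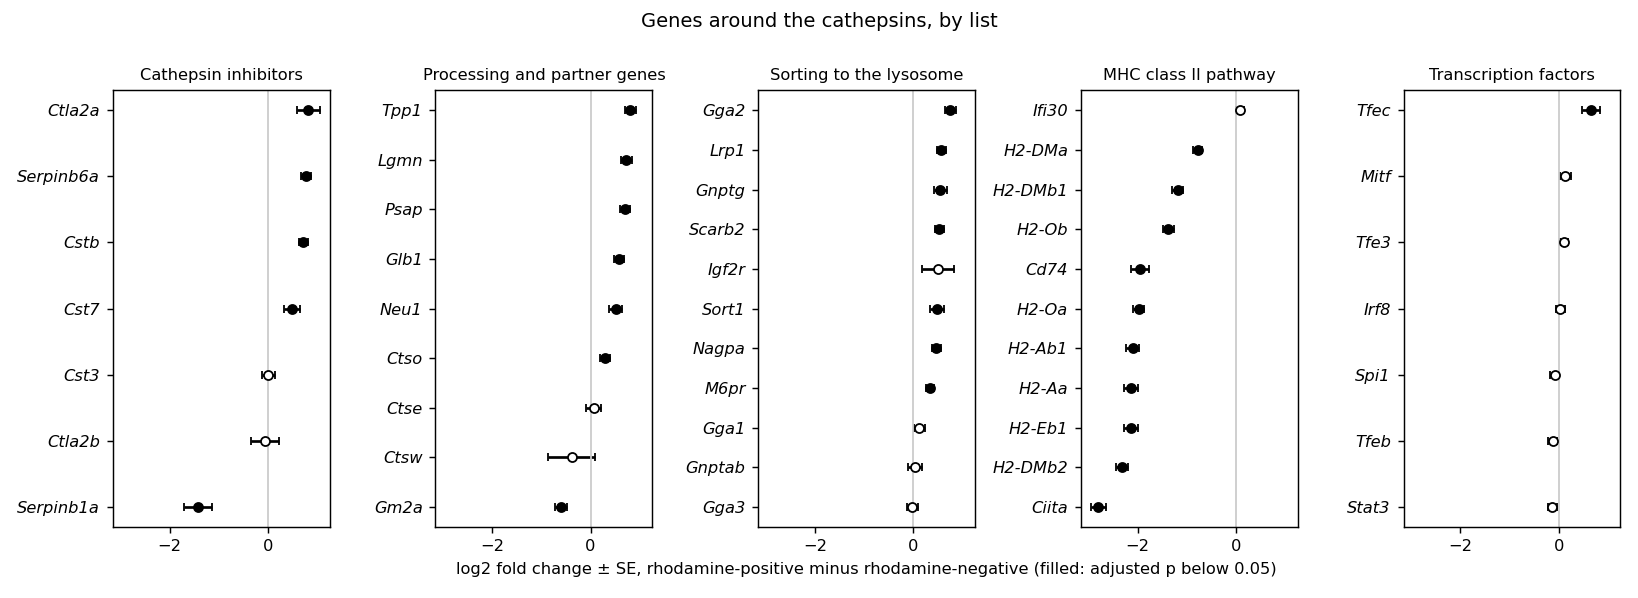
Log2 fold change ± SE in edgeR of the tested genes in 5 lists around the cathepsins, with filled circles where the adjusted p was below 0.05. Most genes of the processing and partner list and of the sorting list lie to the right of 0, and 10 of the 11 class II genes lie to the left.

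Of 7 transcription factor genes linked to lysosomal or myeloid expression, 1 rose and none fell. Over all genes tested 13% rose and 13.2% fell, so the count of risen genes in this list is near the general share. Tfec, a relative of Tfeb found in macrophages, rose by 0.66 (edgeR adjusted p = 0.0186) from 7.52 ± 3.20 to 12.5 ± 6.88 CPM (SD, n = 6), and did not pass without the mouse term (adjusted p = 0.166) and when mouse 1 or mouse 6 was left out (adjusted p = 0.057 and 0.0538). Tfeb and Tfe3 had log2 fold changes of -0.12 and 0.11, Mitf of 0.14 and Stat3 of -0.13, and did not pass. Scaling to library size alone shifted the median over all genes to -0.18, and there Tfec did not pass and Tfeb, Spi1 and Stat3 fell (log2 -0.28, -0.24 and -0.29). In that setting 3142 of all 15014 genes fell and 852 rose.

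Neighbouring genes that share exon bases with a cathepsin on the opposite strand were examined, because the strand setting of the counting was not given in the sources used here. Fdft1, a squalene synthase, overlaps 12.8% of the exon bases of Ctsb and rose by 0.65, with 904 to 2120 counts against 82545 to 331306 for Ctsb. Pltp and Neurl2 overlap 10.5% and 6.87% of Ctsa. Pltp, at 2603 to 3600 counts against 19530 to 51983 for Ctsa, did not pass (log2 0.17). Neurl2 rose by 0.53 with at most 276 counts. The antisense gene Gm47123 covers 26.9% of Ctsl and had at most 103 counts, and the pseudogene Gm49230 within Ctsl had none. Counts of these genes were below those of the cathepsin they overlap, least so for Pltp, but reads of the shared bases cannot be told apart without the strand.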

How the data were processed

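Polyadenylated RNA of 12 TAM sorts was measured by sequencing. The authors deposited raw read counts per gene, in a table and in 12 files per library with the same values, and a table of log2 normalized values for 10605 genes. The submitters' processing notes name build mm10 and, with no roles or order, edgeR, limma, featureCounts 1.4.4, HISAT2 2.1.0, cutadapt and bcl2fastq 2.17. The strand setting and annotation are not given in the sources used here. The deposited log2 values equalled log2 CPM of the counts plus a constant per library between -0.107 and 0.176.

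Counts were tested with edgeR 4.0.16 in R 4.3.3: filterByExpr (minimum count 10, minimum total 15), TMM scaling, the mouse as a block, the quasi-likelihood test and Benjamini-Hochberg adjustment over 15014 genes, with a threshold of 0.05. SE was obtained as the size of the log2 fold change over the root of its F statistic. Differences within mice and RMS differences used log2 CPM with a prior count of 2. Coordinates, lengths and overlaps came from GENCODE vM21 on the same build. The series description ties both sorts to 1 animal. Deviations from the group means correlated within mice across genes at r = 0.226, 0.207, 0.289, 0.0776, 0.302 and 0.450 for mice 1 to 6, and for mouse 4 this lay below the highest correlation with another mouse (0.187). No library was a copy of another (lowest chi-square per degree of freedom 17.5 within a group).

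The cathepsins and the lists of genes around them were chosen with earlier results of these data known. All 10 cathepsins are named. Of each list up to 4 genes with the smallest p are named, with the remaining cathepsins and the partners of Ctsa, and further ones were picked after their values were seen. The 5 genes closest to Ctsb and Ctsd were sought among genes whose log2 CPM averaged 3 or more, without predicted, Rik and immunoglobulin genes. The fit was tested on simulated counts for 15014 genes, where it recovered 74% of 100 abundant genes changed by 0.5 on the log2 scale and 100% of 100 changed by 1, with 8 false calls among 182. Other settings were DESeq2 1.42.0, limma-voom (limma 3.58.1), no mouse term, other scalings and filters, the deposited log2 table, a GC and length offset for 15005 genes, leaving out each mouse, and the male mice by themselves.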

Additional observations from a re-analysis of the deposited data

Results flagged for a closer look

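Some single libraries stood far from the rest of their group, by a gap to the nearest library that passed Dixon's limit for 6 values. Chance flags about 1 in 20 groups, and 20 groups were examined. In the rhodamine-negative group the library of mouse 5 was the lowest for 3 genes. It had 5391 CPM of Ctsb, with the next library at 9044. Its value was 2381 CPM for Ctsz, with the next at 4068, and 1275 CPM for Ctsa, with the next at 2019. In the rhodamine-positive group mouse 2 was the highest for Ctsd, at 37370 CPM, with the next library at 27923.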

How the results depend on the processing

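Over 16 other settings, Ctsb, Ctsd, Ctsz and Ctsa passed as higher in each, with log2 fold changes of 0.94 to 1.15, 0.99 to 1.20, 0.58 to 0.84 and 0.41 to 0.62. Ctsl passed in 13, Ctsc in 10 and Ctsh in 3. Without the mouse as a replicate block, 4 cathepsins rose and 1270 genes were higher, against 1955 with it, and beside Ctsl and Ctsc the block changed no cathepsin's call. With library size alone, 5 cathepsins, 852 genes higher and 3142 lower were called, and Ctss was at -0.037. In male mice alone the counts were 4 cathepsins, 1005 genes higher and 1222 lower. Leaving out each mouse in turn gave 5 to 7 cathepsins and 1257 to 1780 genes higher, with the lowest count of genes without mouse 3. No cathepsin fell in any setting, and none differed by sex with edgeR or limma-voom. DESeq2 and limma-voom each called 7 cathepsins higher, beside 2010 and 2050 of 15014 genes higher and 2276 and 2021 lower. The causes of these shifts were not tested. Depth limits Ctsk, at 6 to 75 counts per library.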
